A study of Mus musculus with 4 samples.

Results

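Chromatin accessibility was described at 10 genes for receptors of vasoactive hormones, *Agtr1a*, *Ednra*, *Ednrb*, *Adra1a*, *Adra1b*, *Adra1d*, *Tbxa2r*, *Ptgir*, *Npr1* and *Npr3*, out of 21853 protein-coding genes. These genes were taken by name, and every ATAC-seq peak inside the gene or within 50 kb of it was assigned to it, which gave 100 of the 64360 peaks listed for the 4 libraries. The libraries came from aortic nuclei at P60 of untreated control mice (*Col3a1*+/+) and of mice with the vascular Ehlers-Danlos syndrome allele (VEDS, *Col3a1*G938D/+), 1 from females and 1 from males of each genotype, and each library name carries 2 animal numbers. ATAC-seq inserts adapters into open DNA with the transposase Tn5, so that accessible sites appear as peaks of fragments. The nuclei were not separated by cell type, so that more cells with an open site and a more open site per cell cannot be told apart.

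These receptors set the tone of the arterial wall. The type 1 angiotensin receptor (*Agtr1a*), the endothelin receptors (*Ednra*, *Ednrb*), the alpha-1 adrenergic receptors (*Adra1a*, *Adra1b*, *Adra1d*) and the thromboxane receptor (*Tbxa2r*) couple to G proteins, and on smooth muscle they raise calcium and cause contraction, while *Ednrb* on the endothelium also drives relaxation. The prostacyclin receptor (*Ptgir*) raises cyclic AMP and relaxes the vessel. *Npr1* is the receptor for atrial and brain natriuretic peptides and makes cyclic GMP, and *Npr3* binds and clears the same peptides.

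The lists were of unequal length. Those of control females and VEDS males were long (21176 and 41444 peaks), and those of VEDS females and control males short (504 and 1236). The pileup at a peak summit, called the number of fragments here, could be worked back from the fold enrichment and its p-value. It had medians of 14 and 22 in the long lists and 6 and 7 in the short ones. Whether it counts whole fragments or their cut ends is not given in the sources used here. In the control male list, 68.8% of peaks had more than 50% of their bases in masked repeats, against 3.90% in the control female list. The 2 long lists belong to different genotypes and different sexes, so that genotype, sex and library cannot be told apart between them, and 2 libraries against 2 allow no two-sided exact permutation p below 0.333. Peaks are therefore described list by list, beside the same measure over all protein-coding genes or all peaks of the list, and a site without a peak was not taken as closed. A peak within 3 kb of a start was called at 46.4% of all protein-coding genes in the control female list and 57.4% in the VEDS male. Promoters of smooth muscle marker genes were called in both long lists (6 of 6 in each), those of endothelial genes in 0 of 6 in the control female list and 2 of 6 in the VEDS male (*Tek* and *Tie1*), and those of immune genes in 0 of 5 in both. Pericyte genes were called at 2 and 4 of 4, fibroblast genes at 4 and 3 of 6, adipocyte and striated muscle genes at 1 and 2 of 5 each, and Schwann cell and melanocyte genes at 3 of 5 in both, and the part of these cells in the peaks below was not tested.

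Sequences in or beside the peaks are shown first, on the strand of the receptor gene and in GRCm38 coordinates (the build of the peak files), as read from the RefSeq genome. Capitals mark matches to the motifs searched. The first set holds stretches upstream of start sites at receptors whose promoter was called. *Ednra* (chr8:77724465-77724562), the inner start of *Adra1b* (chr11:43836658-43836687) and *Ptgir* (chr7:16906389-16906480) differ in what they hold. *Adra1b* and *Ptgir* hold the KLF/SP sequence GGGCGGGG once each, the former on the opposite strand. The *Adra1b* stretch lies in the UTR of a predicted RefSeq transcript that starts farther out, and upstream of the inner start. The *Ednra* stretch holds none of the 14 motifs.
Ednra promoter: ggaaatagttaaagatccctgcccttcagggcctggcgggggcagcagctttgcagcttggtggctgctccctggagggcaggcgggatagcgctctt
Adra1b inner promoter: cctgctctgctCCCCGCCCcatccccgcag
Ptgir promoter: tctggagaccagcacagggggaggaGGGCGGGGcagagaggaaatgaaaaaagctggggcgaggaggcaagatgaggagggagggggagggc

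The second set holds sites for factors known from smooth muscle. SRF binds the CArG box of contractile genes, MEF2 factors bind AT-rich sites, AP-1 (JUN and FOS proteins) binds TGACTCA or TGAGTCA, TEAD factors bind CATTCCA or CATTCCT, and the factors downstream of cyclic AMP bind the CRE, TGACGTCA. Shown are the CArG box upstream of *Ptgir* (chr7:16905711-16905770), a further CArG box in an intron of the neighbouring gene *Dact3* (chr7:16880305-16880388, with a KLF/SP match), the 2 AP-1 matches beside a CArG box upstream of *Adra1b* (chr11:43919926-43920045) and the AP-1 match farther upstream (chr11:43942763-43942886), whose overlapping TEAD and MEF2 pair lies outside the edge of the peak but within the 300 bp around its summit. The AP-1 match in *Adra1d* (chr2:131548472-131548528), the TEAD matches in *Tbxa2r* (chr10:81329730-81329829) and *Npr1* (chr3:90464605-90464661) and the CRE in *Tbxa2r* (chr10:81331780-81331837) all lie in introns of the receptor itself.
Ptgir upstream CArG: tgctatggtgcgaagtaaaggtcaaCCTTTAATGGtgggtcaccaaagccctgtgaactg
Dact3 intron CArG: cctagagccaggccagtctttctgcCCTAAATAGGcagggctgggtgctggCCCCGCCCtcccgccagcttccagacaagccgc
Adra1b upstream AP-1 and CArG: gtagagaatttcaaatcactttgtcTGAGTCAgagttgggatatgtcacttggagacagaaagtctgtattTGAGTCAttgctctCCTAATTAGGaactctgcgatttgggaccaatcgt
Adra1b upstream AP-1 and MEF2: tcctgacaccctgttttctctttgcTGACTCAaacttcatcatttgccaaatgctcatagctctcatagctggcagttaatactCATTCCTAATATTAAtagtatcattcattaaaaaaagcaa
Adra1d intron AP-1: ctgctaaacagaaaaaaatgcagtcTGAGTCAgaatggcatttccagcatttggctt
Tbxa2r intron TEAD: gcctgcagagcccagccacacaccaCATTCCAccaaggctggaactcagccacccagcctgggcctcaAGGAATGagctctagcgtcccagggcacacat
Npr1 intron TEAD: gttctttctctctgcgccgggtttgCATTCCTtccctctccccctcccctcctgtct
Tbxa2r intron CRE: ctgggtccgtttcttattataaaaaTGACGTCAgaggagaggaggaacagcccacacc

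The third set holds a steroid response element upstream of *Adra1d* (chr2:131599709-131599773), a palindrome of the kind bound by the androgen, glucocorticoid and mineralocorticoid receptors, a CTCF core in an intron of *Adra1b* (chr11:43783902-43783963), the site of a factor that shapes chromatin loops, and the 100 bases around the summit of the intron peak of *Npr3* (chr15:11878496-11878595), which was called in both long lists and matches none of the 14 motifs.
Adra1d upstream steroid response element: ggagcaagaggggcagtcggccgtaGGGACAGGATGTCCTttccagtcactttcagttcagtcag
Adra1b intron CTCF: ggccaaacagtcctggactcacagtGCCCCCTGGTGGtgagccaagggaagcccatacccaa
Npr3 intron summit: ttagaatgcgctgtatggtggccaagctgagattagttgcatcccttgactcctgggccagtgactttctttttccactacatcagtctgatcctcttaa

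Of the receptor-window peaks, 33 were listed for control females, 66 for VEDS males, 0 for VEDS females and 1 for control males. Merged over the lists they formed 68 regions, of which 30 were called in both long lists, 1 in both long lists and the control male, 35 in the VEDS male list alone and 2 in the control female list alone. Of all peaks, 47.6% of the VEDS male list and 95% of the control female list overlapped a peak of the other long list. The control male peak lay at the promoter of *Cactin*, a neighbour of *Tbxa2r*, with 12 fragments at its summit.

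**Figure D1:**
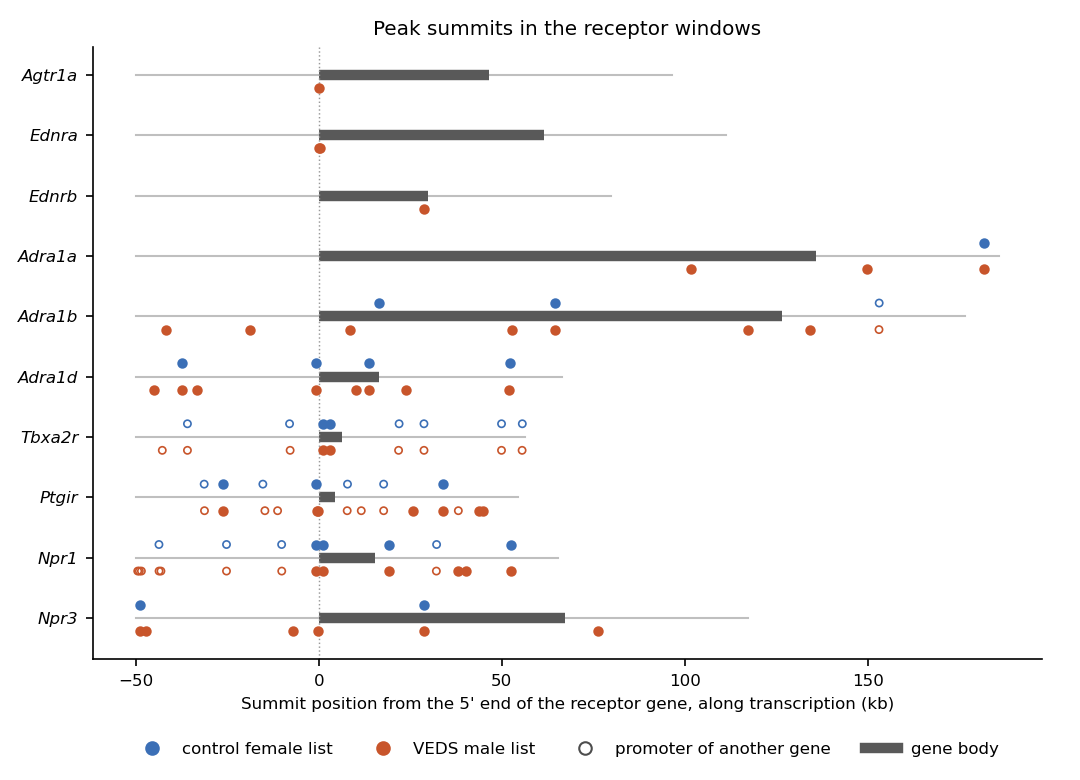
Peak summits in the 10 receptor windows, by distance in kb from the 5′ end of the receptor along its direction of transcription, with the control female list above each gene line and the VEDS male list below it. Filled points are peaks at the receptor promoter or distal peaks, open points lie within 3 kb of a start site of another protein-coding gene, thick bars are gene bodies and thin lines the 50-kb flanks. *Tbxa2r*, *Ptgir* and *Npr1* hold most of the open points, and *Agtr1a*, *Ednra* and *Ednrb* have no point from the control female list.

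A receptor promoter peak was defined as one within 3 kb of the start of a protein-coding transcript. In the control female list 5 of 10 receptors had one, *Adra1b*, *Adra1d*, *Tbxa2r*, *Ptgir* and *Npr1* (95% Wilson interval 23.7% to 76.3%, which covers counting error only), where 46.4% of all protein-coding genes did. In the VEDS male list 8 of 10 did, these 5 and *Agtr1a*, *Ednra* and *Npr3* (49.0% to 94.3%), where 57.4% of all protein-coding genes did. In the VEDS female and control male lists 0 of 10 did, which allows up to 27.8%, and only 1.42% and 1.46% of all protein-coding genes did. *Ednrb* and *Adra1a* had no promoter peak in any of the 4 lists. When the VEDS male list was shortened to the 21176 peaks of highest −log10 q, the length of the control female list, 5 receptors had a promoter peak in each list, *Ptgir* being replaced by *Agtr1a*, and 48.9% of all protein-coding genes did in the shortened list. The Wilson intervals included the share of all protein-coding genes in each of the 4 lists.

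CpG content differed among the promoters called in both long lists. The observed-to-expected CpG ratio within 250 bp of the 5′-most start was 0.83 at *Adra1d* and 0.82 at *Npr1*, in the highest of 3 equal groups of protein-coding genes, where 78.7% had a promoter peak in the control female list and 90.2% in the VEDS male. The ratio was 0.19 at *Ptgir* and 0.27 at *Tbxa2r*, in the lowest group, where 11.2% and 18.0% did. *Adra1b* (0.33, at the outer start), *Ednra* (0.41), *Ednrb* (0.52), *Agtr1a* (0.52), *Npr3* (0.61) and *Adra1a* (0.74) were in the middle group, with 49.2% and 63.9%.

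*Agtr1a*, a gene for a type 1 angiotensin receptor, had 1 peak in its window over the 4 lists together. It was called in the VEDS male list over the start site (chr13:30336277-30336684), with the summit 48 bp upstream, 21 fragments at the summit (95% Poisson interval 13.0 to 32.1), 9.49-fold enrichment and rank 15618 of 41444. The VEDS male list was divided by rank of −log10 q into 10 groups of 3465 to 4821 peaks, with tied peaks kept together, and in the group of this peak 65.9% of all peaks overlapped a control female peak, while the *Agtr1a* peak did not.

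The endothelin receptors had few peaks, all from the VEDS male list. At *Ednra*, the smooth muscle receptor for endothelin-1, 2 short peaks lay on both sides of the start, 1 in the first exon (chr8:77724095-77724299) and 1 upstream (chr8:77724440-77724562), with 12 fragments each, 5.34-fold and 5.30-fold enrichment and ranks 31282 and 31400. In their rank group 14.2% of all VEDS male peaks overlapped a control female peak. *Ednrb* had no peak near its start, and its 1 peak lay in the last exon, in the 3′ UTR (chr14:103815651-103815906), 27.9 kb from the nearest start site, with 12 fragments and 5.61-fold enrichment. That peak was in the same rank group as the *Ednra* peaks. The 300 bp around each of these 3 summits matched none of the 14 motifs.

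**Figure D2:**
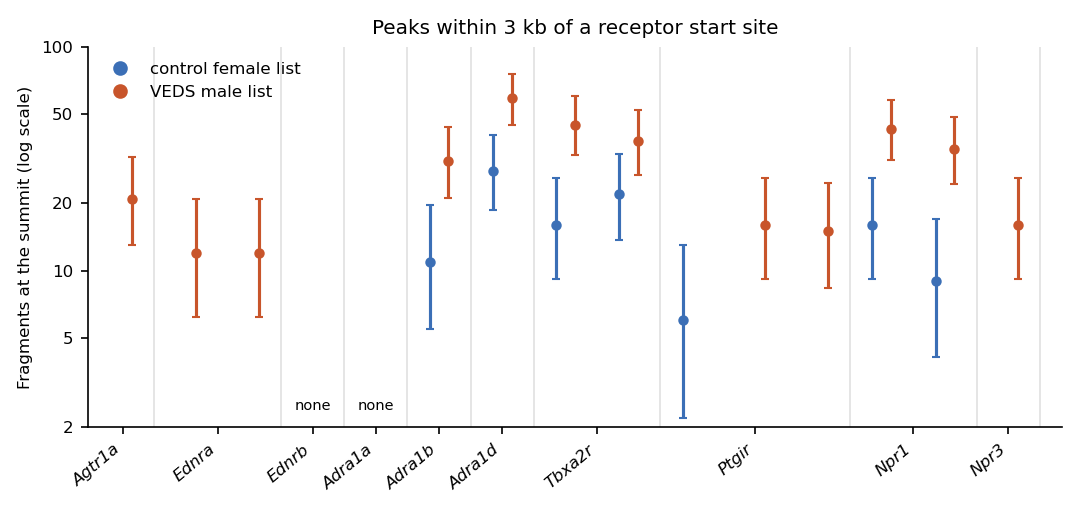
Fragments at the summit of each peak within 3 kb of a receptor start site (log axis), with 95% Poisson intervals, in the control female and VEDS male lists. Columns within a gene are separate peak regions, and a gene without a promoter peak is marked none. Paired points are regions called in both lists, at *Adra1b*, *Adra1d*, *Tbxa2r* and *Npr1*, and *Adra1d* is highest with 28 and 59 fragments, which were not scaled for depth.

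The alpha-1 adrenergic receptors, which mediate contraction to noradrenaline, differed among themselves. *Adra1d*, the subtype known for contraction of the mouse aorta, had the most strongly enriched promoter peak of the 10 receptors in the control female list, while in the VEDS male list those of *Adra1b* and *Agtr1a* were more enriched. Its summit was 699 bp upstream in the control female list (chr2:131562759-131563138) with 28 fragments, 10.6-fold enrichment and rank 2707, and 802 bp upstream in the VEDS male list (chr2:131562627-131563254) with 59 fragments, 8.69-fold enrichment and rank 6159. *Adra1a* had no promoter peak and 1 peak in both lists, 182 kb from its 5′ end in an intron of *Dpysl2* (VEDS male chr14:66816948-66817293). In the VEDS male list it had further peaks 102 kb inside the gene, in intron 2 of a 3-exon transcript, with 13 fragments, and 150 kb from its 5′ end, beyond the gene, with a CTCF core and 11 fragments. In the rank groups of these further peaks 22.1% and 14.2% of all VEDS male peaks overlapped a control female peak.

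At *Adra1b* the peak did not lie at the 5′-most start but at a second annotated start, 64.6 kb inside the gene. The control female peak (chr11:43836467-43836637) had 11 fragments, 6.92-fold enrichment and rank 12171, and the VEDS male peak (chr11:43836313-43836815) 31 fragments, 10.1-fold enrichment and rank 11107. The KLF/SP match printed above lay 95 bp and 85 bp from the 2 summits, inside the VEDS male peak and outside the edge of the control female peak. No list had a peak within 3 kb of the outer start.

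Sites away from the start were found around *Adra1b* and *Adra1d*. The steroid response element upstream of *Adra1d* lay in a peak of both long lists, 37.4 kb and 37.5 kb from the start, with 22 fragments, 9.12-fold enrichment and rank 5012 in the control female list and 42 fragments, 7.98-fold enrichment and rank 10364 in the VEDS male. The element was 35 bp from the control female summit and 6 bp from the VEDS male summit. It was the only such match among the receptor peaks, and 0.246% of all control female summit windows and 0.247% of all VEDS male windows held one. The nearest protein-coding start to this peak was that of *Adra1d* itself.

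The AP-1 match in intron 1 of *Adra1d*, 13.8 kb from the start, was also in a peak of both lists. That peak had 16 fragments, 7.12-fold enrichment and rank 9608 of 21176 in the control female list. In the VEDS male list it had 19 fragments, 4.10-fold enrichment and rank 31512 of 41444. Upstream of *Adra1b* the peak with 2 AP-1 matches and a CArG box (18.8 kb from the start, chr11:43919656-43920109) had 17 fragments and 6.38-fold enrichment, and that with the AP-1 match and, just outside its edge, the MEF2 and TEAD matches (41.7 kb, chr11:43942811-43943007) had 11 fragments and 4.82-fold enrichment. Both were called in the VEDS male list alone, at ranks 24270 and 33988. In their rank groups 32.3% and 9.44% of all VEDS male peaks overlapped a control female peak. The CTCF core in the gene lay in a peak of the VEDS male list alone, with 25 fragments and 10.5-fold enrichment at rank 12695. In the rank group of that peak 65.9% of all VEDS male peaks overlapped a control female peak. The peak of highest −log10 q in the *Adra1b* window was the promoter of the neighbour *Ttc1* (ranks 1503 and 893).

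The prostanoid receptors lie among close neighbours, with 9 other protein-coding genes that start in the *Tbxa2r* window and 5 in the *Ptgir* window. *Tbxa2r* had 2 peaks of its own in both long lists, both in intron 1 of a 3-exon transcript. The first, 1.02 kb and 1.01 kb from the start with the pair of TEAD matches, had 16 fragments and 5.89-fold enrichment in the control female list and 45 fragments and 6.74-fold in the VEDS male. The second, at 3.02 kb and 3.11 kb with the CRE, had 22 fragments and 7.27-fold enrichment and 38 fragments and 5.25-fold. The other 6 of 8 control female and 7 of 9 VEDS male peaks were at promoters of other genes, that of highest −log10 q being *Pip5k1c* in the control female list (rank 177) and *Fzr1* in the VEDS male (rank 196).

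At *Ptgir* the promoter was called in both long lists, but at different sites. The control female peak (chr7:16905613-16905868) lay 733 bp upstream over the CArG box, with 6 fragments, 3.71-fold enrichment and rank 21027 of 21176. The VEDS male peaks lay 530 bp (chr7:16905883-16906005) and 160 bp upstream (chr7:16906245-16906480), with 16 and 15 fragments and ranks 31791 and 33697 of 41444, and the second had 53.0% of its bases in masked repeats. None of these 3 peaks overlapped, and the control female peak was near the end of its list. In its rank group 76.2% of all control female peaks overlapped a VEDS male peak. In those of the VEDS male peaks 14.2% and 9.44% of all peaks overlapped a control female peak. The CArG box in the *Dact3* intron, 26.2 kb upstream of *Ptgir*, was in a peak of both lists, with 16 fragments and 6.62-fold enrichment at rank 10538 and 61 fragments and 8.62-fold at rank 5902, and the nearest start to it was that of *Dact3*. The peak of highest −log10 q in the *Ptgir* window was the promoter of *Dact3* in the control female list (rank 153) and that of *Calm3* in the VEDS male (rank 747).

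The natriuretic peptide receptors also differed in position. *Npr1* had 2 promoter peaks in both lists. That in intron 1, with the TEAD match, had 16 fragments and 5.94-fold enrichment in the control female list and 43 fragments and 6.75-fold in the VEDS male, and that upstream (757 bp and 824 bp) had 9 fragments and 3.68-fold and 35 fragments and 5.75-fold. The peak of highest −log10 q in its window was the promoter of *Ilf2* in both lists (ranks 98 and 275), and a peak in an intron of *Ints3*, 52.6 kb and 52.7 kb from the *Npr1* start, held TEAD, RUNX and GATA matches in both. The RUNX sequence searched was TGTGGTT. The sequence for the last of these was TGATAAG, with AGATAAG taken as a match as well.

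*Npr3* had its strongest peak inside the gene, in intron 3 of an 8-exon transcript and 28.7 kb from the 5′ end, with the summit at the same base in both lists. It had 20 fragments, 11.4-fold enrichment and rank 3730 in the control female list (chr15:11878385-11878705) and 44 fragments, 13.9-fold enrichment and rank 5345 in the VEDS male (chr15:11878425-11878745). The *Npr3* promoter was called in the VEDS male list alone (chr15:11907189-11907486), with 16 fragments, 4.40-fold enrichment and rank 31949. In its rank group 14.2% of all VEDS male peaks overlapped a control female peak. A further peak 48.9 kb and 49.0 kb upstream was in both lists, with 16 and 32 fragments.

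The number of peaks per receptor ranged from 0 to 8 in the control female list (median 2.5, against 2 for all protein-coding genes with the same rule) and from 1 to 14 in the VEDS male (median 7, against 4). *Ptgir* and *Npr1* had 14 each in the VEDS male list, and 96.8% of protein-coding genes had fewer. In the control female list *Tbxa2r* and *Npr1* had 8 and *Ptgir* 7. *Agtr1a*, *Ednra* and *Ednrb* had 0, as 27.0% of protein-coding genes did, and 1, 2 and 1 in the VEDS male list. *Agtr1a*, the endothelin receptors, *Adra1a*, *Adra1d* and *Npr3* had no other protein-coding gene with a start in their windows, and *Npr1* had 6. Genes that start outside can still reach in, as *Dpysl2* did at *Adra1a* and *Smox* at *Adra1d*.

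**Figure D3:**
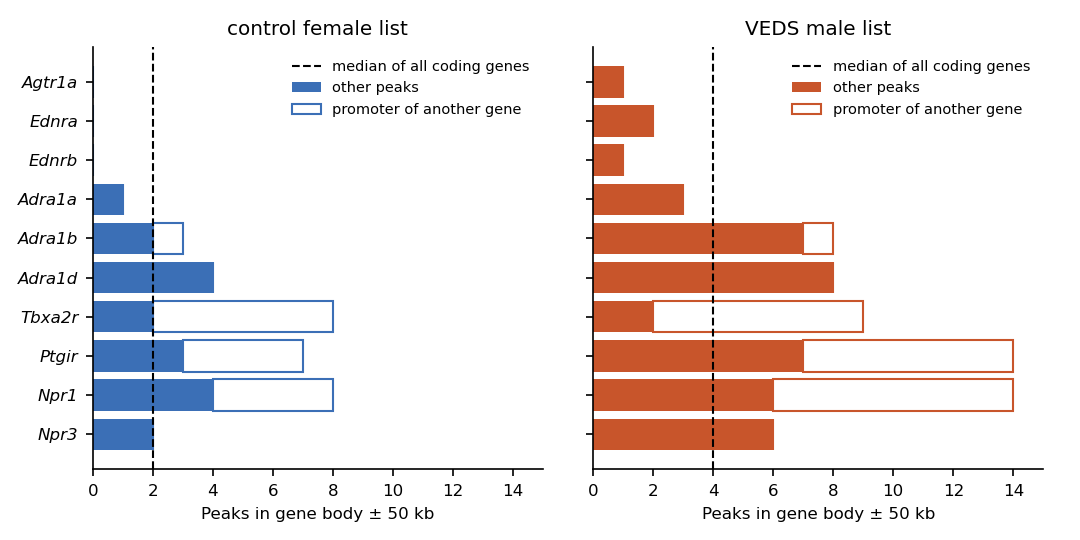
Peaks per receptor in the gene body and 50 kb on each side, in the control female and VEDS male lists, with bars from 0. Open parts of the bars are peaks within 3 kb of the start of another protein-coding gene, and the dashed line is the median of all protein-coding genes, 2 and 4 peaks. In the control female list the open part is 6 of 8 peaks at *Tbxa2r*, 4 of 7 at *Ptgir* and 4 of 8 at *Npr1*.

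By position, 7 of the 33 control female peaks were at a receptor promoter, 15 at the promoter of another gene, 3 elsewhere in a receptor gene and 8 outside. The VEDS male counts were 12, 23, 8 and 23 of 66. Peaks at promoters of other genes had the most fragments, with a median of 30 and 50 in the 2 lists, against 16 and 26 at receptor promoters and 15.5 and 18 at distal peaks outside the receptor genes.

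Most control female peaks in the receptor windows were also in the VEDS male list. By overlap of at least 1 bp, 31 of 33 were (93.9%, Wilson interval 80.4% to 98.3%), where 95% of all control female peaks were. In the other direction 31 of 66 VEDS male peaks overlapped a control female peak (47.0%, 35.4% to 58.8%), where 47.6% of all VEDS male peaks did. Both shares were close to those of the whole lists. At equal length of the long lists, 36 VEDS male peaks lay in the receptor windows and 77.8% of them were shared, and 84.8% of the 33 control female peaks were. The share of all peaks at that length is not given here, and 47.6% is that of the full VEDS male list. The 2 control female regions not in the VEDS male list, in intron 1 of *Adra1b* and upstream of *Ptgir*, had 6 fragments each.

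The overlap followed the rank of the peak. In the first 3 of the 10 rank groups of the VEDS male list, 22 of 22 receptor-window peaks were shared, where 99.5%, 95.7% and 84.2% of all peaks were. In the last 4 groups 3 of 28 were, where 22.1%, 14.2%, 9.44% and 4.85% of all peaks were. Summed over the groups, the shares of all peaks give 33.6 shared peaks where 31 were counted. In the fourth group, which holds the *Agtr1a* promoter peak, 2 of 7 were shared, where 65.9% of all peaks were. Without the peaks at other genes' starts, 16 of 43 VEDS male peaks were shared, where the shares by rank group give 41.1%.

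**Figure D4:**
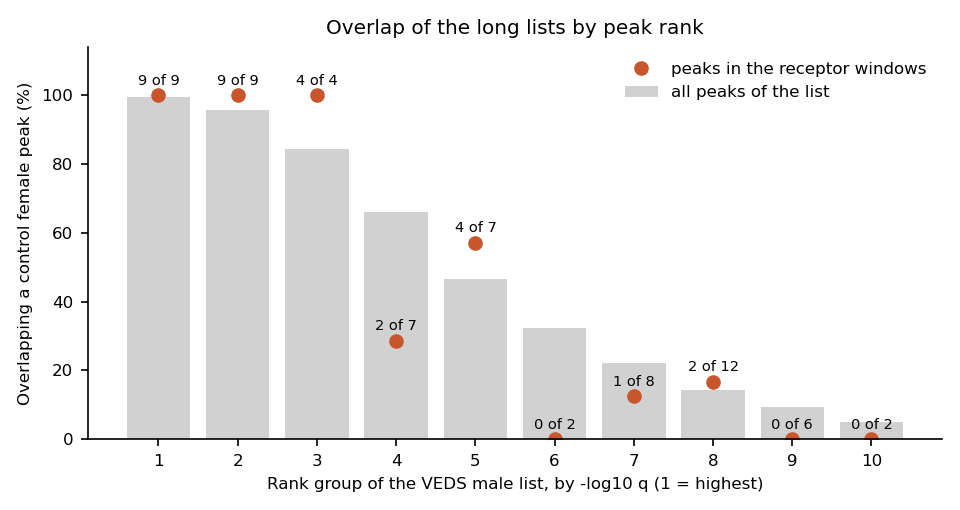
Share of VEDS male peaks that overlap a control female peak, in percent, by rank group (10 groups of 3465 to 4821 peaks in order of −log10 q, group 1 highest). Gray bars are all peaks of the list and points the receptor-window peaks, with their counts. Both fall from near 100% in the first group to below 10% in the last 2, where 0 of 8 receptor-window peaks were shared.

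Over the 31 shared regions the ranks in the 2 lists went together (Spearman's rho 0.85 across regions, which lie in the same libraries and are not independent). The summits were a median of 33 bp apart, and 18 of 31 were within 50 bp.

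Motifs were counted on both strands in the 300 bp around each summit. TEAD sites were in 6 of 33 control female windows (18.2%, Wilson interval 8.61% to 34.4%) and 11 of 66 VEDS male windows (16.7%, 9.57% to 27.4%), where 12.5% and 13.3% of all windows held one. AP-1 sites were in 2 (6.06%, 1.68% to 19.6%) and 6 (9.09%, 4.23% to 18.4%), where 11.6% of all windows did in both lists. KLF/SP sites were in 5 and 8 (15.2% and 12.1%), where 19.2% and 13.2% did, and RUNX sites in 3 and 6 (9.09% in both), where 4.42% and 5.14% did.

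The CArG box was in 2 windows of each list (6.06% and 3.03%, where 3.02% and 3.09% of all windows did) and MEF2 in 1 of each (3.03% and 1.52%, where 5.55% and 5.79% did). ETS sites (CCGGAAG) were in 3 and 4 windows (9.09% and 6.06%, where 10.3% and 7.28% of all windows held one), and the CRE in 2 and 3 (6.06% and 4.55%, where 2.59% and 1.77% did). GATA sites were in 2 and 4 (6.06% in both, where 4.54% and 5.01% did), and the CTCF core in 0 and 3 (0% and 4.55%, where 1.93% and 3.12% did). NFI sites were in 0 of 33 and 0 of 66, where 0.0521% and 0.0556% of all windows held one, and FOX sites (TGTTTAC) likewise, where 3.15% and 3.34% did. A SOX site (CCATTGT) was in 0 and 1 (0% and 1.52%), where 2.39% and 2.66% did. Apart from the steroid response element, which was in 1 window of each list, every interval of the 14 motifs in the 2 lists included the share of all windows of its list. That element was the same site in both lists. For a motif this rare, 1 match in either list already puts the lower limit above the share, so its exception shows no more than that match. In the distal peaks, AP-1 was in 1 of 11 and 5 of 31, where 18.1% and 15.3% of all distal windows held it.

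**Figure D5:**
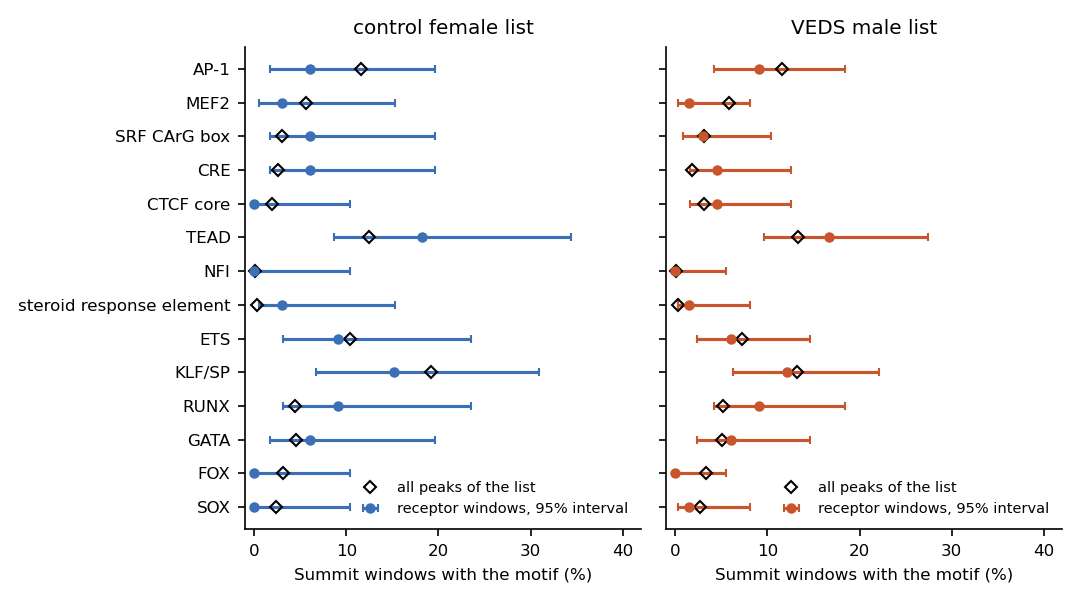
Share of summit windows (300 bp) holding each of 14 motifs, in percent, for the receptor-window peaks with 95% Wilson intervals and for all peaks of the list (diamonds), in the control female and VEDS male lists. The diamonds lie inside the intervals for all motifs but the steroid response element, which rests on 1 window in each list, at the same site.

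Genes that act with these receptors were counted from lists of 83 genes. Promoter peaks were called at 35 of them (42.2%) in the control female list, 52 (62.7%) in the VEDS male and 0 in the others, where 46.4% and 57.4% of all protein-coding genes were called in the long lists. The genes for G proteins and their regulators, which carry the receptor signal, were called at 12 of 14 and 14 of 14. Of the angiotensin genes 4 and 5 of 9 were called, of the endothelin genes 1 and 3 of 5 (*Ece1*, the converting enzyme, in both lists), of the prostanoid genes 3 and 5 of 11, of the natriuretic peptide genes 4 and 7 of 10 and of the other vasoactive receptors 10 and 16 of 28.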

How the data were processed

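Nuclei were profiled with a single-cell ATAC kit and analyzed in aggregate. Reads were mapped by the authors to GRCm38 (mm10), and duplicates sharing a barcode were removed. MACS2 was then run in narrow-peak mode on each library, with corrected Tn5 cut sites and without blacklisted regions. The aligner and the peak threshold are not given in the sources used here. The deposited lists give for each peak a score, a ratio (the fold enrichment at the summit), −log10 p, −log10 q and the summit offset. Library depths were not used here, and no value was scaled between lists.

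Peaks were assigned to a receptor when they lay in the gene (GENCODE vM21) or within 50 kb. Fragments at a summit (the pileup) were solved from the deposited fold and −log10 p with a Poisson model, which gave a whole number for 99.3% to 99.9% of peaks. The Poisson intervals take these counts as independent, which cut ends of the same fragment would not be. Ranks are by −log10 q within a list. Motifs were fixed consensus sequences. Genome sequence was read from RefSeq GRCm38.p6, whose promoter table held 9 entries for 7 of the receptors, all equal to the genome. Only peaks and genes on assembled chromosomes were annotated. Scripts were tested on simulated data. A few items are not reported here. Python 3.11.15, numpy 2.4.6, pandas 2.3.3, scipy 1.17.1, pysam 0.24.0 and matplotlib 3.10.9 were used.

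Libraries were grouped by genotype and sex from the sample labels, and no test between genotypes was made. The members, the lists of related and marker genes and the motifs were chosen with earlier results of these data known. All 10 members were named, and a neighbour where its promoter was the peak of highest −log10 q in the window. From the related lists only *Ece1* was named, the first gene by rank of the endothelin list. *Cactin*, *Dpysl2* and *Ints3*, and the intron peak of *Dact3*, were named after their peaks were seen. The alternatives were stricter −log10 q, equal list length, other windows, assignments, start sites, overlaps and consensus sequences, and leaving out each library.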

Additional observations from a re-analysis of the deposited data

Results flagged for a closer look

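The difference between VEDS and control had opposite signs in the 2 sexes, which was not tested. In females the VEDS list had 33 fewer receptor-window peaks than the control list (a difference of -33, from 33 to 0), and in males 65 more (from 1 to 66). The receptors with a promoter peak differed by -5 in females (5 in control, 0 in VEDS) and by 8 in males (0 and 8). The share of all protein-coding genes with a promoter peak differed in the same directions. It was 46.4% in control and 1.42% in VEDS females, and 1.46% in control and 57.4% in VEDS males. Each difference sets 1 long list against 1 short list, with 21176 and 504 peaks in females and 1236 and 41444 in males, and with medians of 14, 6, 7 and 22 fragments at a summit. Genotype, sex and library cannot be told apart here.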

How the results depend on the processing

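With −log10 q of at least 10 the receptor-window peaks numbered 19 for control females, 37 for VEDS males and 0 for control males. With each list shortened to the length of the shortest, they numbered 4 for control females and 3 for VEDS males, and with the long lists at equal length 36 in the VEDS male against 33 in the control female. A window of 20 kb gave 18 and 36 peaks, 100 kb gave 57 and 109, the gene body alone 7 and 16 (control male 0), and peaks whose nearest start was the receptor's 11 and 27 (control male 0). Merged regions ranged from 33 to 68 when each library was left out, the lowest without the VEDS male library (VEDS replicate 2), and receptors with a promoter peak in any list from 5 to 8, the lowest again without that library. Receptors with a promoter peak numbered 2 and 5 with −log10 q of at least 10, 0 and 0 at the length of the shortest list, 5 in the VEDS male with the long lists at equal length, and 0 and 3 when the peak had to overlap the start. Of all protein-coding genes 48.9% were called in the VEDS male list at equal length of the long lists. In the shortest list itself, of 504 peaks, 1.42% were. The shares of all genes under the other settings are not given here, so these counts also reflect the setting.

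The shared share of control female peaks was 100% with −log10 q of at least 5 or 10, 75.0% at the length of the shortest list and 66.7% with reciprocal overlap of at least 50%. That of VEDS male peaks was 100% at the length of the shortest list, 77.8% with the long lists at equal length, and 33.3% both with reciprocal overlap and for peaks nearest to the receptor's start. The share cannot be given without either long list. Shares of all peaks under these settings are not given here.

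Motif shares rested on few windows. With the relaxed consensus, AP-1 was at 21.2% and 34.8%, MEF2 at 21.2% and 18.2% and KLF/SP at 33.3% and 28.8% (control female first). With −log10 q of at least 10, MEF2 was at 0% in both lists, TEAD at 0% in the control female and AP-1 at 2.70% in the VEDS male. MEF2 in the control female list was also at 0% within 200 bp and for peaks nearest to the receptor's start, and KLF/SP in the VEDS male at 3.23% in distal peaks. Shares of all windows are not given here for the relaxed consensus, which matches more sequences by construction. Those given above are for the main consensus sequences in the full lists and cannot be set beside the relaxed values. The median number of peaks per receptor was 1.5 and 3.5 with −log10 q of at least 10, 0 and 0 at the length of the shortest list, 1.5 and 4 within 20 kb, 5 and 11.5 within 100 kb, 0.5 and 1.5 in the gene body, 1 and 2 for peaks nearest to the receptor's start, and 3 in the VEDS male with the long lists at equal length. The cause of these changes was not tested beyond the construction of each alternative, which changes the peaks counted. No paired analysis was made. The libraries of the 2 genotypes can be matched only by sex, with 1 library per genotype in each. The differences within each sex are given as values.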

Other observations

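Some VEDS male peaks called in that list alone held motif matches in their summit windows, as did peaks called in both long lists. Whether such peaks were more frequent in either list was not tested. Downstream of *Ptgir*, 45.0 kb from its 5′ end, a peak with 25 fragments, 8.03-fold enrichment and rank 16131 held CRE, ETS, RUNX and SOX matches, and a further peak 43.9 kb from the same end held RUNX and GATA matches (18 fragments, rank 25509). Beyond the 3′ end of *Npr3*, 76.4 kb from its 5′ end, the window around a peak with 11 fragments and rank 32251 held 3 TEAD matches and 1 AP-1 match, none of them wholly inside the peak itself. The peak 47.2 kb upstream of *Npr3* held 1 TEAD match (27 fragments), and 1 lay within the summit window but outside the edge of the peak 7.0 kb upstream (9 fragments). In the rank groups of these peaks, in order, 65.9%, 22.1%, 14.2%, 46.6% and 9.44% of all VEDS male peaks overlapped a control female peak.

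In intron 1 of *Adra1b* the 2 long lists had no peak in common. The control female list had a peak 16.4 kb from the 5′ end (6 fragments, rank 19685) and the VEDS male list had peaks 8.48 kb and 52.9 kb from it (18 and 13 fragments, ranks 20237 and 27774). In the rank group of the first peak 76.2% of all control female peaks overlapped a VEDS male peak. In those of the other peaks 46.6% and 22.1% of all VEDS male peaks overlapped a control female peak. TEAD matches were in the 300-bp summit windows of the first and the second of these 3 peaks, and a GATA match in that of the second. The TEAD match of the first peak and the GATA match lay outside the edges of their peaks. The low fragment numbers limit what their separation between the lists shows.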
